A study of Rattus norvegicus with 13 samples.

Results

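The FLAG peaks and the H3K4me2 peaks of Myocd-LSD1 cells were compared region by region, as 2 lists with 26480 and 42405 members among the 154284 regions in the 4 peak lists of the series. Overlap of at least 1 bp joined a region of 1 list to a region of the other, and the joined shares were split by the authors' annotation, by peak width and by distance from the transcription start site (TSS). All samples were lines of rat aortic smooth muscle cells (SMC), profiled by CUT&Tag, in which an antibody brings the transposase Tn5 to the epitope so that the DNA beside it is cut and tagged. FLAG was profiled in cells labelled Myocd-LSD1 (FLAG-tagged) with 4 samples, and H3K4me2 in cells labelled Myocd-LSD1 with 3 samples. H3K4me2 peaks of control cells, labelled WT, and of Myocd-LSD1NF cells, with 3 samples each, serve for reference. The labels name no treatment, do not spell out NF, and do not say whether a line is a single clone, how the fusion is expressed, or whether samples with one label were grown apart. They also do not say whether the FLAG and H3K4me2 samples came from the same culture. Each group had a single peak list, with all peak names of a list carrying the same alignment name, so no value below has a replicate error and no test was made between lists. FLAG in cells without the tag was not analysed here, so the background of the FLAG antibody is unknown.

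Myocd encodes myocardin, a coactivator that binds serum response factor (SRF) and drives contractile genes in SMC. SRF binds a sequence called the CArG box in the promoters of those genes and of immediate early genes. LSD1, encoded by Kdm1a, removes methyl groups from mono- and dimethylated lysine 4 of histone H3. H3K4me2 lies on active and poised promoters and enhancers, often on the nucleosomes that flank a TSS. The names of the cells join the coactivator to the demethylase, and the comparison asks where the tagged protein was called relative to the mark that LSD1 acts on.

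Of 7 genes that mark contractile SMC, Acta2, Tagln, Cnn1, Lmod1, Smtn and Myocd had an H3K4me2 peak within 3 kb of a TSS in Myocd-LSD1 cells, and Myh11 had none. The promoters of 5 genes of the SRF programme are shown because they differ in FLAG: Acta2, Egr1 and Fhl1 had both a FLAG and an H3K4me2 peak within 3 kb of a TSS, while Ldb3 and Cnn1 had H3K4me2 and no FLAG peak there. The sequences are RefSeq promoters of the build GRCr8, from 250 bases before to 50 after the start, written 5′ to 3′ on the gene's strand. Capitals mark the CArG box, searched as CC, then 6 letters that are A or T, then GG, which reads alike on both strands. For Acta2, where no such match was found, capitals mark matches with at most 1 letter different. The peaks are in rn6 coordinates and were not placed on these sequences.
Acta2: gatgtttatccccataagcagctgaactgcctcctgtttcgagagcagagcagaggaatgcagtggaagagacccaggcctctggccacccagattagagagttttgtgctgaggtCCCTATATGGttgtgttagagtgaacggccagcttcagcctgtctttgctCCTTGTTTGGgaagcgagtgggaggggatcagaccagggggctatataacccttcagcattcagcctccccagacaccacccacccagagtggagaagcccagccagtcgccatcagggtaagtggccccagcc
Egr1: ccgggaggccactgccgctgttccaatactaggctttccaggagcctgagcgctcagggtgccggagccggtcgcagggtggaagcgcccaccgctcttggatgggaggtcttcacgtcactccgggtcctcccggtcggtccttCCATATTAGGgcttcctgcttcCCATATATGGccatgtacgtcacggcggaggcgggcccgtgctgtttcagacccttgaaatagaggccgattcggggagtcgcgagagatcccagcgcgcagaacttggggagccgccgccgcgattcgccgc
Fhl1: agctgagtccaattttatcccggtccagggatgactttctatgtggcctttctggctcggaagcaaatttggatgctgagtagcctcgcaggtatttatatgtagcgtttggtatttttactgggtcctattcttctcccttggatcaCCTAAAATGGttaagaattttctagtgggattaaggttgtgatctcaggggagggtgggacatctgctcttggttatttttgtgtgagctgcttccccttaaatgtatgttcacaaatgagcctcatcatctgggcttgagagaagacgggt
Ldb3: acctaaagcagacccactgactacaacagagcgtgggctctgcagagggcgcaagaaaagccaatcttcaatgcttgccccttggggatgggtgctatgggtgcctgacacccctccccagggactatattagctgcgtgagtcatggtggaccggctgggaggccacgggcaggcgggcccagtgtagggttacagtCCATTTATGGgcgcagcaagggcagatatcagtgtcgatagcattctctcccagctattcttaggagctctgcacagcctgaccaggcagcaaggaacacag
Cnn1: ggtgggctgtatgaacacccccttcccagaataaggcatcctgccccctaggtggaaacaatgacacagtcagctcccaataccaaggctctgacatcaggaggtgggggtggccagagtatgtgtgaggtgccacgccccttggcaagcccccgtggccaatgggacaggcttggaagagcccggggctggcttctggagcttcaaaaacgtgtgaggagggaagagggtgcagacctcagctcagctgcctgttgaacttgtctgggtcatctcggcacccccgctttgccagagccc

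The Egr1 promoter held 2 boxes, whose first bases lay at -105 and -83 from the start, and the Fhl1 promoter shown held 1 at -102. RefSeq listed 2 promoters for Fhl1, of which 1 is shown. In the Ldb3 promoter, without a FLAG peak, 1 box lay at -52. The Acta2 promoter held 2 matches with at most 1 letter different, at -134 and -84, and the Cnn1 promoter held none of either kind. Of all 33469 RefSeq promoters of this length, 1.64% held a CArG box and 21.3% held a match with at most 1 letter different. A match is a description of the letters and not a site of binding. Boxes were thus found at Egr1 and Fhl1, which had promoter FLAG, and at Ldb3, which had none. The boxes need not lie under FLAG. In the authors' annotation, the 1 promoter FLAG peak of Egr1 lay at -697 bp, and 1 of the 2 of Fhl1 at -132 bp. Acta2, whose matches were not exact, had a FLAG peak on its TSS. Whether any box lay inside a FLAG peak was not tested.

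Most FLAG peaks lay on H3K4me2, and most H3K4me2 peaks had no FLAG peak. Of the 26480 FLAG peaks, 18276 overlapped an H3K4me2 peak, a share of 69.0% (exact 95% binomial interval 68.5% to 69.6%, which covers counting error only, as do all intervals here). Of the 42405 H3K4me2 peaks, 17823 overlapped a FLAG peak, a share of 42.0% (41.6% to 42.5%). The lists covered 11.2 Mb and 32.1 Mb. They shared 8.03 Mb, which was 71.7% of the FLAG sequence and 25.1% of the H3K4me2 sequence.

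FLAG peaks sat inside the broader H3K4me2 peaks. The median width was 350 bp for FLAG and 635 bp for H3K4me2, and 14103 FLAG peaks, 77.2% of those with overlap, lay wholly within an H3K4me2 peak. The pairing was nearly always single: 17298 H3K4me2 peaks held 1 FLAG peak, 510 held 2 and 15 held 3, while 87 FLAG peaks touched 2 H3K4me2 peaks. The FLAG summit was a median of 99 bp from the H3K4me2 summit over 18363 overlapping pairs (quartiles 34 and 205 bp). It lay in the central 50% of the H3K4me2 peak in 67.1% of pairs. Across annotation classes this distance varied little, with medians of 106 bp at promoters, 95 bp in introns, 85 bp in exons and 91 bp in distal intergenic sequence.

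Stronger peaks in either list were joined in larger shares. FLAG peaks were ranked by the authors' -log10 q-value and cut into 10 classes of equal number, with class 1 the weakest. The share on H3K4me2 was 33.9% in class 1, 73.0% in class 5 and 90.4% in class 10. For H3K4me2 peaks, cut in the same way, the share with FLAG went from 11.3% in class 1 to 32.2% in class 5 and 87.7% in class 10. The FLAG share was no higher in class 10 than in class 9, at 90.6%. In the authors' fold enrichment over background, FLAG peaks on H3K4me2 had a median of 5.64 and those off it 4.20. H3K4me2 peaks with FLAG had a median fold of 8.40 and those without 5.84. Strength went with width, so splits by either are not separate results. From class 1 to class 10, the median width went from 212 to 685 bp for FLAG and from 318 to 1171 bp for H3K4me2.

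The annotation split the FLAG peaks into promoters against everything else. Promoters, within 3 kb of a TSS in the authors' annotation, took 40.1% of FLAG peaks, distal intergenic sequence 28.4%, introns 26.2% and exons 3.23%. H3K4me2 was present at 91.5% (91.0% to 92.0%) of the 10629 promoter FLAG peaks. In introns the share was 55.8% (54.6% to 57.0%) of 6937 peaks and in exons 56.5% (53.1% to 59.8%) of 855. In distal intergenic sequence it was 51.4% (50.3% to 52.6%) of 7526. The promoter share exceeded the distal one by 40.1 points (Newcombe 95% interval 38.8 to 41.3), far beyond counting error, and the intron share exceeded the distal one by 4.34 points (2.71 to 5.96). Within introns, FLAG peaks of the first intron were on H3K4me2 in 65.3% of 1913 cases and those of later introns in 52.1% of 5024.

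Seen from the mark, the classes stood closer together and in another order. FLAG was present at 50.2% (49.5% to 50.9%) of 18923 promoter H3K4me2 peaks, 39.0% (36.6% to 41.5%) of 1540 exonic ones, 37.2% (36.3% to 38.2%) of 10103 distal ones and 32.8% (31.9% to 33.7%) of 11004 intronic ones. The promoter share exceeded the distal one by 13.0 points (11.8 to 14.2), and the intron share was below the distal one, with a difference of -4.40 points (-5.69 to -3.11). Intronic and distal H3K4me2 peaks had like median widths, 506 and 520 bp. The order of the other small classes could not be told at their counts: 76.5% of 34 FLAG peaks in 5′ UTRs and 67.3% of 153 in 3′ UTRs lay on H3K4me2, with intervals of 58.8% to 89.3% and 59.3% to 74.7%.

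**Figure D1:**
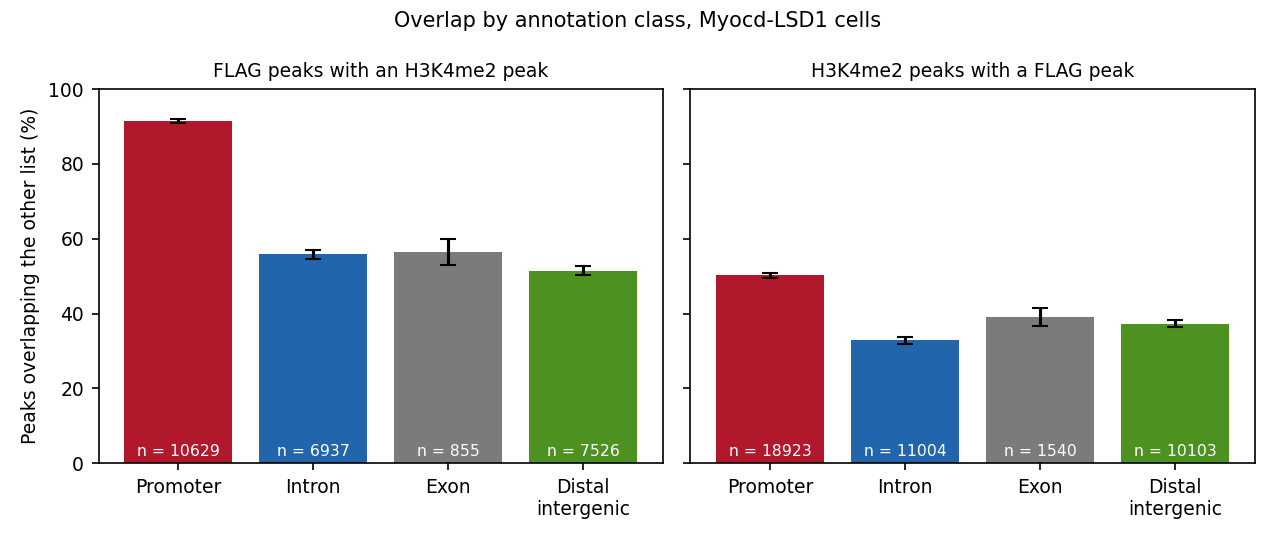
Share of peaks that overlap the other list (y axis, %), by annotation class (x axis), for FLAG peaks on the left and H3K4me2 peaks on the right. Bars are single peak lists with exact 95% binomial intervals and n is the number of peaks; promoters lead on the left at 91.5% against 51.4% in distal intergenic sequence, while on the right they lead at 50.2% against 37.2%.

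Width went with overlap in both lists. FLAG peaks on H3K4me2 had a median width of 410 bp and those off it 254 bp, and H3K4me2 peaks with and without FLAG had medians of 884 and 493 bp. In 5 width classes of equal number, from the narrowest to the widest, the FLAG share was 44.2%, 57.9%, 71.0%, 82.7% and 89.4%. The H3K4me2 share was 14.5% in width class 1, 40.8% in class 3, 56.6% in class 4 and 73.2% in class 5. A wider peak offers more sequence to overlap. When only the midpoint of the H3K4me2 peak had to lie in a FLAG peak, the shares were 11.7%, 20.5%, 32.9%, 43.1% and 39.6%, so class 5 was then no higher than class 4. With the H3K4me2 summit in place of the midpoint, class 5 was the higher one, at 57.8% against 47.6% in class 4. Among the widest FLAG peaks the share was not higher with width: it was 91.3% between 800 and 1000 bp, 88.2% of the 672 between 1000 and 1500 bp and 70.5% (61.2% to 78.8%) of the 112 over 1500 bp.

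Within the width classes, the promoter excess remained for FLAG peaks and not for H3K4me2 peaks. Among the narrowest FLAG peaks, 73.9% of those at promoters and 33.9% of those in distal intergenic sequence lay on H3K4me2. Among the widest, the shares were 98.2% and 70.7%, and the difference between the classes went from 40.0 points (36.7 to 43.2) to 27.5 points (24.8 to 30.4). Among the narrowest H3K4me2 peaks, FLAG was at 11.5% of those at promoters and 16.1% of those in distal intergenic sequence, a difference of -4.61 points (-6.51 to -2.68). In the widest class the shares were 74.3% and 71.5%, and the difference of 2.81 points (-0.388 to 6.20) was within counting error. Promoter H3K4me2 peaks had a median width of 865 bp against 520 bp in distal intergenic sequence. At like strength the promoter share was lower or about equal: in class 5 by q-value, FLAG was at 22.9% of promoter and 37.8% of distal H3K4me2 peaks, and in class 10 at 87.9% of each.

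**Figure D2:**
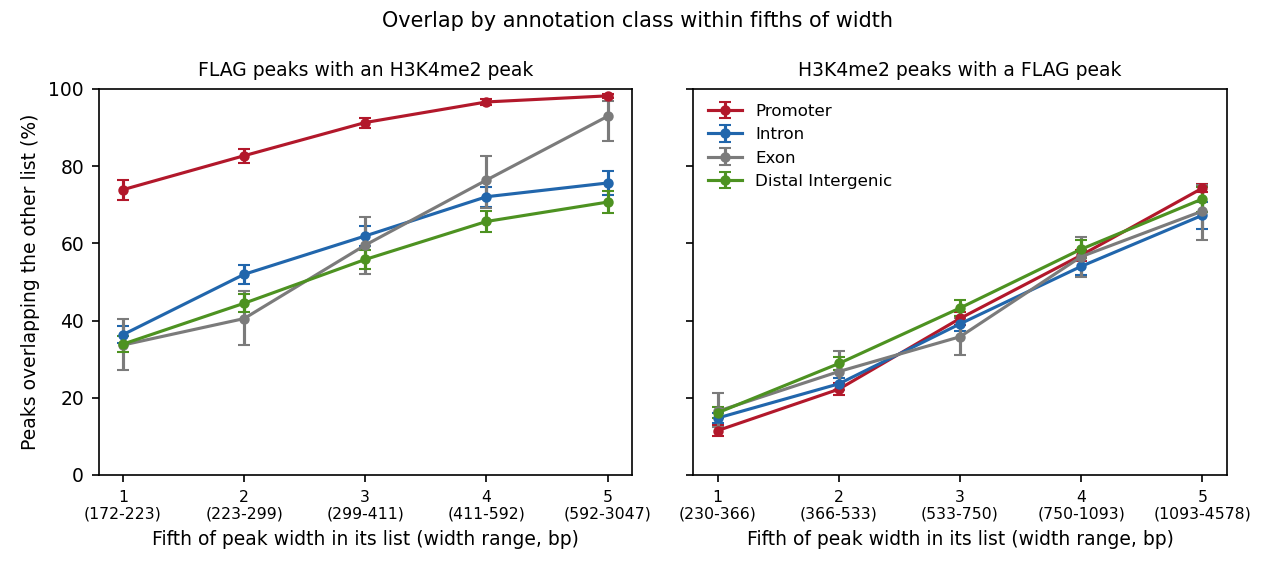
Share of peaks that overlap the other list (y axis, %) within 5 classes of peak width (x axis, width range in bp), by annotation class, with exact 95% binomial intervals. For FLAG peaks on the left the promoter line lies above the intron and distal lines in every class, from 73.9% to 98.2%, while for H3K4me2 peaks on the right the 4 lines run together, from 11.5% to 74.3% at promoters.

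The shares were highest for peaks that covered a TSS, which were also the widest. Of 5840 FLAG peaks that covered a TSS, 98.8% lay on H3K4me2, and this share was lower at each step of distance, with 89.5% within 1 kb, 67.7% between 1 and 3 kb, 59.5% between 3 and 10 kb, 56.0% between 10 and 50 kb, 51.2% between 50 and 100 kb and 35.9% beyond 100 kb. Of 10505 H3K4me2 peaks that covered a TSS, 68.5% had FLAG. Off the TSS, the H3K4me2 share was 30.0% within 1 kb, 23.9% between 1 and 3 kb, 34.3% between 3 and 10 kb and 36.3% between 10 and 50 kb, both sides of the TSS together. The share within 1 kb minus that between 10 and 50 kb was -6.25 points (-7.79 to -4.69). Where a FLAG peak within 500 bp also counted, this difference turned to 2.34 points (0.714 to 3.97), with 40.3% within 1 kb and 37.9% between 10 and 50 kb. H3K4me2 peaks on a TSS had a median width of 1116 bp, against 599 bp within 1 kb off it. For FLAG peaks the medians were 560 and 338 bp. By the midpoint of the H3K4me2 peak, the shares with FLAG were 44.7% on the TSS and 20.4% within 1 kb. Whether the shares differ by distance at like width was not tested.

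The sides of the TSS differed for the mark. Within 1 kb, FLAG was at 25.3% (23.8% to 26.8%) of 3310 downstream H3K4me2 peaks and 40.5% (38.0% to 43.1%) of 1495 upstream ones, although the downstream peaks were wider, with medians of 649 and 528 bp. Between 1 and 3 kb the shares were 19.0% of 2568 downstream peaks and 36.0% of 1045 upstream ones. The upstream shares were thus above or close to those from 3 to 50 kb, and the downstream shares below them. With FLAG within 500 bp counted, the shares within 1 kb were 37.1% downstream and 47.4% upstream, and between 1 and 3 kb 21.3% and 37.9%. FLAG peaks showed no such gap within 1 kb: 90.0% (88.5% to 91.3%) of the downstream and 89.0% (87.3% to 90.5%) of the upstream ones lay on H3K4me2. Between 1 and 3 kb their shares were 71.1% (67.9% to 74.1%) downstream and 63.2% (59.4% to 66.9%) upstream, the other way round from the mark.

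**Figure D3:**
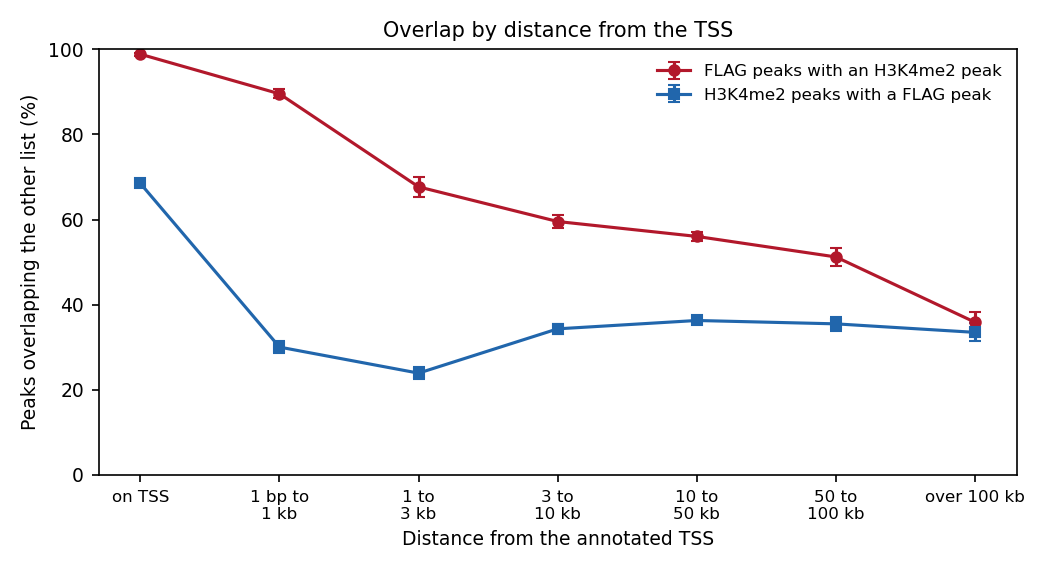
Share of peaks that overlap the other list (y axis, %) by distance from the annotated TSS (x axis, unequal steps), with exact 95% binomial intervals. The FLAG line falls from 98.8% on the TSS to 35.9% beyond 100 kb, while the H3K4me2 line drops from 68.5% to 23.9% between 1 and 3 kb and lies between 33.5% and 36.3% further out. Peaks on the TSS were wider, with medians of 560 bp for FLAG and 1116 bp for H3K4me2, against 338 and 599 bp within 1 kb.

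Where a FLAG peak covered a TSS, both summits lay close to it. Over 5821 such pairs the median summit was at -9 bp from the TSS for FLAG (quartiles -121 and 103 bp) and at -9 bp for H3K4me2 (quartiles -122 and 165 bp), negative meaning upstream. The absolute distance had a median of 112 bp for FLAG and 137 bp for H3K4me2. The FLAG summit was the nearer one in 56.2% (54.9% to 57.4%) of pairs. A summit within 100 bp of the TSS was found for 45.6% of FLAG peaks and 40.8% of H3K4me2 peaks. These pairs were chosen by the FLAG peak covering the TSS, which keeps its summit near, so the closeness of FLAG is partly set by the choice.

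**Figure D4:**
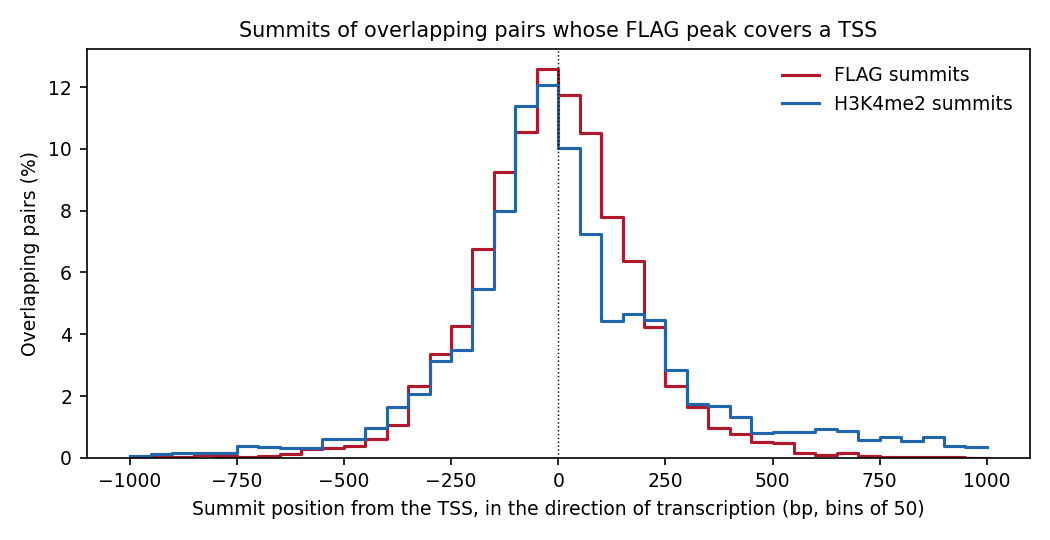
Position of peak summits from the TSS in the direction of transcription (x axis, bp, bins of 50) as a share of the 5821 overlapping pairs whose FLAG peak covers a TSS (y axis, %). Both lists peak just upstream of the TSS with medians of -9 bp, and the H3K4me2 line reaches further downstream, with an upper quartile of 165 bp against 103 bp for FLAG.

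The 8204 FLAG peaks without overlap were seldom at the edge of a mark. The nearest H3K4me2 peak was a median of 16627 bp away (quartiles 6072 and 50172 bp, for the 8180 peaks with a mark on the same sequence). It was within 500 bp for 4.31% (3.89% to 4.78%), within 1 kb for 6.91% and within 10 kb for 36.5%. H3K4me2 peaks on both sides within 1 kb, as a FLAG peak in a gap between marked nucleosomes would have, were found for 34 of them. At the 902 promoter FLAG peaks without overlap the median gap was 7056 bp, with 12.1% within 500 bp, and in distal intergenic sequence it was 23230 bp, with 3.28% within 500 bp.

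The sites of FLAG were largely marked in control and Myocd-LSD1NF cells as well. FLAG peaks overlapped an H3K4me2 peak of control cells in 65.1% of cases and of Myocd-LSD1NF cells in 67.4%. All 3 lines had a mark at 16081 FLAG peaks, 60.7% of them, and no line had one at 7012, 26.5%. A mark in Myocd-LSD1 cells and neither other line was found at 864. Of the 8204 FLAG peaks without a mark in Myocd-LSD1 cells, 1192 had one in control or Myocd-LSD1NF cells, a share of 14.5% (13.8% to 15.3%).

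Control peaks with no counterpart in Myocd-LSD1 cells rarely had FLAG. FLAG was at 48.6% (48.0% to 49.1%) of the 33655 control H3K4me2 peaks that overlapped a Myocd-LSD1 peak and at 7.31% (6.78% to 7.87%) of the 9017 that did not. The latter were narrower, with a median of 341 bp against 649 bp. In the narrowest of 5 width classes of control peaks the shares were 23.5% and 7.38%, and in the widest 72.1% and 4.83%. A like split by Myocd-LSD1NF in place of Myocd-LSD1 peaks gave 47.2% and 8.79%. Myocd-LSD1 peaks with a control counterpart had FLAG in 16275 of 32546 cases (interval 49.5% to 50.6%) and those without in 15.7% of 9859 cases.

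The authors' deposited table of the comparison with Myocd-LSD1NF gave sites tested over replicates. In that table, 2174 sites were lower in Myocd-LSD1 cells, and a FLAG peak lay on 494 of them, 22.7% (21.0% to 24.5%). Of the 3009 sites higher in Myocd-LSD1 cells in the authors' deposited table, 977 had a FLAG peak, 32.5% (30.8% to 34.2%). Both shares lay below the 42.0% of all Myocd-LSD1 H3K4me2 peaks, which are another set of regions. The sites in the authors' deposited table need not be peaks called in Myocd-LSD1 cells. Their median widths were 679 bp for the lower and 719 bp for the higher sites, against 635 bp for the peaks. Whether FLAG was rarer at changed sites than at like unchanged ones was not tested. Among the lower sites, the median log2 difference in the authors' deposited table was -1.34 with FLAG and -2.40 without. Among the higher sites it was 1.80 with FLAG and 2.65 without. The sites with FLAG carried more signal in Myocd-LSD1 cells: the authors' deposited table gave a median log2 concentration of 4.66 against 2.52 at the lower sites and 6.12 against 5.21 at the higher ones. The part of this signal in the differences was not tested.

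At the level of genes, a FLAG peak at a promoter nearly always came with the mark. Of the 21397 genes named in any list, FLAG was called within 3 kb of a TSS at 48.5%, H3K4me2 at 67.7% and both at 46.5%. FLAG without the mark was found at 431 genes and the mark without FLAG at 4528. Of the 10383 genes with FLAG, 95.8% had the mark, and of the 14480 with the mark, 68.7% had FLAG. The promoter FLAG peak itself overlapped an H3K4me2 peak at 45.4% of all genes.

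Contractile genes carried both in most cases. Of 40 SMC contractile genes, 29 had FLAG and H3K4me2 at the promoter, 72.5% against 46.5% of all genes, 7 had H3K4me2 only and 4 neither. Acta2, smooth muscle actin, had a FLAG peak on its TSS (chr1:252550354-252550659 in rn6, fold 7.66) within an H3K4me2 peak of 377 bp and fold 4.58 (chr1:252550345-252550721). The highest FLAG folds at contractile promoters were at Dstn, which encodes the actin-severing protein destrin, with 14.0 for FLAG and 7.53 for the mark, and at Vcl, vinculin of focal adhesions, with 12.0 and 8.78. The mark was higher elsewhere, with 14.9 at Ppp1r12b, a subunit of myosin phosphatase, and 14.5 at Itga8, an integrin. Tpm2, a tropomyosin, had FLAG at a fold of 7.52 with the mark at 4.74, Cald1, the actin-binding caldesmon, 7.52 with 5.26, and Mylk, the kinase of the myosin light chain, 5.51 with 11.9. The folds of FLAG and the mark did not follow each other in order among these genes, some of which were picked for a high fold of one of them. Whether the folds go together over all 29 genes was not tested.

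Some contractile genes departed from this. At Tagln, which encodes transgelin (SM22), the only FLAG peak (chr8:50228583-50228875, fold 5.23) ended 105 bp from the nearest H3K4me2 peak and overlapped none. The 7 genes with H3K4me2 only at the promoter included Itga1, Itga5 and Itga7, which encode integrin subunits. The others were Myl9, the regulatory myosin light chain, Cnn1, calponin, Pgm5, a phosphoglucomutase-related protein of cell junctions, and Ldb3, a Z-disc protein. The H3K4me2 folds of the 7 ranged from 4.20 at Cnn1 to 8.67 at Itga7. Actg2, Kcnmb1 and Myh11 were among those with neither within 3 kb. Myh11, the smooth muscle myosin heavy chain, had no peak of either list annotated to it.

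Among 30 regulators of myocardin and SRF, 23 had both within 3 kb of a TSS, 76.7% against 46.5% of all genes. A further 5 had H3K4me2 only and 2 neither. Of their marked promoters, 82.1% had FLAG, against 68.7% over all genes. Srf itself had 2 promoter FLAG peaks, both on H3K4me2, with a FLAG fold of 3.94 at the stronger, which lay on a mark of 2951 bp. Mkl1, a myocardin-related coactivator, had FLAG at a fold of 8.78 on a mark of fold 10.3, and Wwtr1, the coactivator TAZ, 10.2 on 5.69. Klf4, a repressor of contractile genes in SMC, had 7 FLAG peaks annotated to it, 6 of them on H3K4me2. At Myocd, the 1 FLAG peak, 189 bp wide with a fold of 4.89 and 1021 bp downstream of the TSS, lay 2921 bp from the nearest H3K4me2 peak. Within 3 kb of a TSS, Gata4, Hey1, Mef2c, Notch3 and Prrx1 had the mark only, with folds up to 12.1 at Hey1. Further out, 3 FLAG peaks were annotated to Prrx1 and 1 to Notch3, all on H3K4me2. Hey1 had 1 FLAG peak annotated to it, off the mark, and Gata4 and Mef2c had none.

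Immediate early genes, which SRF switches on after serum or growth factors, had both at 17 of 20 promoters, 85.0% against 46.5% of all genes. All 20 had the mark, and over all genes 68.7% of those with the mark had FLAG. Housekeeping genes had both at 88.9%. The promoter FLAG peaks of all 17 immediate early genes included one that overlapped H3K4me2. Egr1, a zinc-finger factor, had a FLAG peak of 1015 bp and fold 7.22 on a mark of 1169 bp and fold 8.67. Jun had FLAG at a fold of 9.16 on its TSS, and Fos 2 promoter FLAG peaks with a fold of 7.05 at the stronger, both on H3K4me2. Within 3 kb of a TSS, Ankrd1, Btg2 and Cyr61 had the mark only. Ankrd1 had no FLAG peak annotated to it.

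Genes of the LSD1 complex and of H3K4 methylation had H3K4me2 at all 23 promoters matched and FLAG at 15, each of them on the mark. This was 65.2% of their marked promoters, against 68.7% over all genes. Kdm1a itself had a FLAG peak of fold 6.30 on its TSS, overlapping a mark of fold 6.81. Its relative Kdm1b, which also demethylates H3K4, had FLAG at a fold of 12.0, Hdac2, a deacetylase of the same complex, 10.7, and Zmym2, a zinc-finger member, 13.4. The mark without FLAG within 3 kb of a TSS was found at Rcor1, which encodes the CoREST scaffold of LSD1. The same held at Kdm6a, Kmt2c, Kmt2d, Phf21a, Rbbp5, Setd1b and Wdr5. The H3K4me2 peak counted for Kdm6a lay on chromosome Y.

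Other lists place these counts. Housekeeping genes had both at 16 of 18 promoters, 88.9%, above the contractile list at 72.5%, the regulators at 76.7% and the immediate early genes at 85.0%. Of 29 extracellular matrix genes, all had H3K4me2 and 15 had FLAG too. Of 18 osteogenic and chondrogenic genes, 7 had both and Alpl, an alkaline phosphatase of mineralising cells, had FLAG only. Markers of other cell types stood lower: both were found at 2 of 14 endothelial, 2 of 10 leukocyte, 0 of 11 skeletal and cardiac muscle, 3 of 12 neural and 0 of 11 hepatocyte and epithelial genes. The mark alone was found at 3, 1, 0, 5 and 4 of them. Where both were found, the promoter FLAG peak overlapped the mark at 2 endothelial, 1 leukocyte and 2 neural genes. With promoters of 1 kb, both were found at 0 endothelial, 1 leukocyte and 0 neural genes. These 1 kb counts cannot be set against the shares at 3 kb, because other lists also had FLAG beyond 1 kb. In the authors' annotation, the 1 promoter FLAG peak lay at -2612 bp at Egr4 and -1939 bp at Egr3. It lay at 2027 bp at Ppp1r14a and 1463 bp at Csrp1. As a share of the promoters with H3K4me2, FLAG was present at 80.6% of contractile, 51.7% of extracellular matrix, 37.5% of neural and 68.7% of all genes. Whether FLAG differs between lists at like H3K4me2 strength was not tested.

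**Figure D5:**
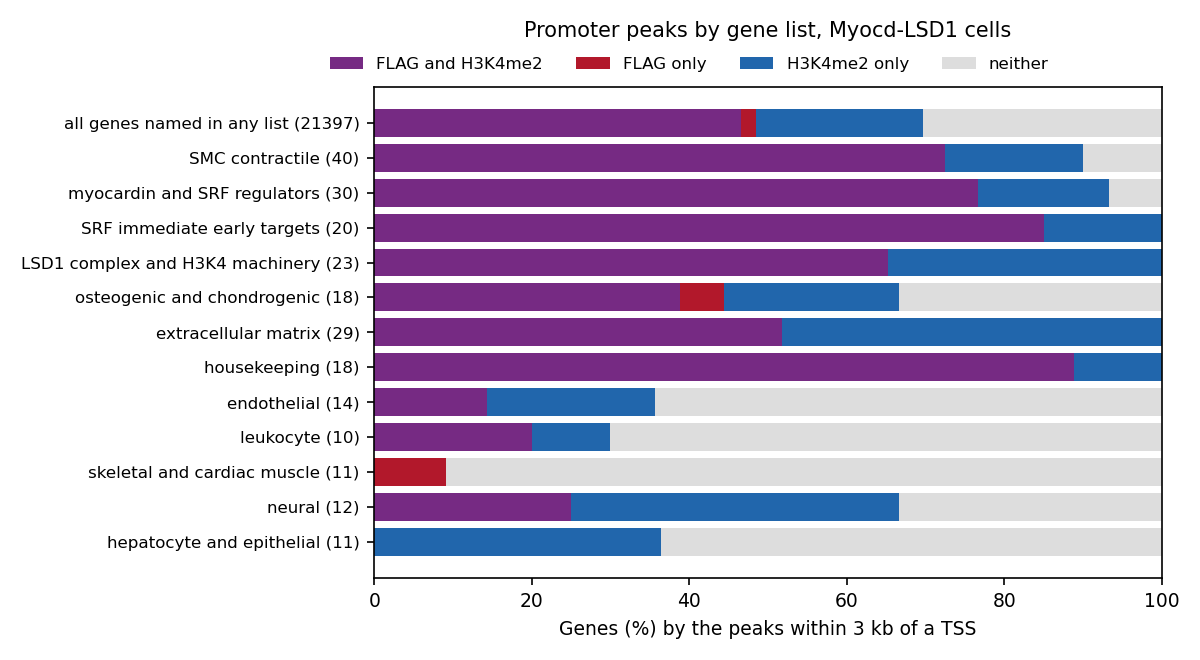
Genes (x axis, % of each list) by the peaks within 3 kb of a TSS in Myocd-LSD1 cells, for all 21397 genes named in any list and for 12 gene lists (y axis, number of genes matched in brackets). FLAG together with H3K4me2 covers 46.5% of all genes, 72.5% of contractile genes, 88.9% of housekeeping genes and 0% of hepatocyte and epithelial genes.

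The very highest FLAG peaks differed from the rest of the top of the list. Of the top 100 by q-value, 72 lay on H3K4me2, 27 were at promoters and 60 in distal intergenic sequence. Of the top 1000, 886 lay on H3K4me2, 704 were at promoters and 224 in distal intergenic sequence. Control cells had a mark at 69 of the top 100 FLAG peaks. Among named genes, the highest FLAG peaks with H3K4me2 were annotated to Fam13c, Gucy1a2, Mucl1, Gpr89b, Shcbp1, Nwd2, Vezf1 and Rlim. Of these 8, only the peak near Vezf1, which encodes a zinc-finger factor, was at a promoter, 275 bp upstream of the TSS with a distance of -275 and a FLAG fold of 36.8, on a mark of fold 14.8. The peak near Fam13c, ranked 1 among FLAG peaks, lay on the H3K4me2 peaks ranked 4 in Myocd-LSD1 cells, 4 in control cells and 3 in Myocd-LSD1NF cells. The peak annotated to Gucy1a2, ranked 2, lay on the H3K4me2 peaks ranked 5 in Myocd-LSD1, control and Myocd-LSD1NF cells. Both regions were thus among the strongest by q-value with both antibodies and in control cells. Their FLAG folds were 8.73 at Fam13c and 10.5 at Gucy1a2.

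The highest FLAG peaks without H3K4me2 were mostly narrow, and none was at a promoter. They were annotated to Papd7, Snai2, Crem, Cacna2d3, Intu, Ssbp2, Vom2r30 and Map2k6, of which 5 were distal intergenic and 3 intronic, and 6 of the 8 were between 177 and 395 bp wide. The peak annotated to Crem, 118675 bp from its TSS, was 647 bp wide with a fold of 35.4, and no H3K4me2 list had a peak there. That annotated to Cacna2d3 was 122200 bp from its TSS. Of the 8, the peak near Vom2r30 was the one with a mark in another line, Myocd-LSD1NF, at rank 40905 of 42727.

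Like most strong H3K4me2 peaks, the highest ones without FLAG were mostly promoters, a class that held 3584 of the 4240 peaks in class 10 by q-value. They were annotated to Cabin1, Rab11fip3, Hm13, Nf1x, Dysf, Scfd2, Slc4a11 and Tmem189, 7 of them at promoters, with folds from 7.47 at Rab11fip3 to 21.5 at Cabin1. Their ranks by q-value were 164 to 325 of 42405, and FLAG was present at every stronger H3K4me2 peak whose gene met the same naming rule. All 8 were also marked in control cells, at ranks 390 to 2993. Among the widest H3K4me2 peaks, those at Irs2, Tns1, Acap3 and Ptprg were 3618 to 4578 bp wide, and each held 1 FLAG peak. Of all 3273 H3K4me2 peaks over 1500 bp, 80.5% had FLAG, so this is common at such widths. Irs2, an adaptor of the insulin receptor, had the widest, at a fold of 2.85 with FLAG at 4.08.

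The overlap varied moderately by chromosome. Over the numbered chromosomes and X, the share of FLAG peaks on H3K4me2 ranged from 62.2% on chromosome 15 to 75.1% on chromosome 10. The share of H3K4me2 peaks with FLAG ranged from 32.1% on X to 47.6% on chromosome 12.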

How the data were processed

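CUT&Tag peak lists of 4 groups (13 samples) were used. Bowtie2, MACS2, ChIPseeker, deepTools, DiffBind and rn6 are named, without versions or settings, per the submitters' processing notes. Each group has 1 deposited list; pooling of samples, duplicate removal, scaling and the Tn5 offset are not stated, and depth per sample is unknown, so peak number and width can follow depth. Per the file headers, the deposited fold is the enrichment of a peak over background, and the -log10 p-value and -log10 q-value come from peak calling. The score column of the deposited lists holds the same q-value, scaled by 10 and cut to a whole number. The authors' deposited table of differences gives log2 concentrations, the log2 difference between lines, and for each site a p-value beside its FDR, with sites at an FDR of up to 0.05.

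Starts were read as 0-based and are printed 1-based. Overlap needed 1 bp; 5 width classes and 10 q-value classes were cut within each list. Genes were given peaks within 3 kb of any TSS named in the lists. Shares carry exact (Clopper-Pearson) 95% intervals and differences Newcombe intervals. Peaks are not replicates, so no p-value is given. Of 262 entries in 12 gene lists, 235 matched by name and 1 by synonym. RefSeq promoters (GRCr8) matched 60.2% of gene names, so no promoter property was compared between gene classes; 21 gene names in the lists are dates left by a spreadsheet. Named peaks were the 8 highest with and without overlap, the 8 highest H3K4me2 peaks without FLAG and the 5 widest, with a gene symbol, on numbered chromosomes or X, beside members of 4 lists; a few of these genes are not reported here. Members, lists and rules were chosen with earlier results of these data known. Alternatives changed the overlap rule, the list cut, the promoter distance and the chromosomes. Overlap code was tested on simulated lists. The tools were scipy 1.17.1, pandas 2.3.3, numpy 2.4.6 and matplotlib 3.10.9 under Python 3.11.15.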

Additional observations from a re-analysis of the deposited data

How the results depend on the processing

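The share of FLAG peaks on H3K4me2, 69.0%, was 66.6% with 50% of the FLAG peak covered, 66.7% with its midpoint inside, 70.4% within 500 bp, 72.1% in the top 50% of both lists and 85.3% in the top 50% of the FLAG list. It was 67.0% with the summit inside and 58.5% with the H3K4me2 list cut to the length of the FLAG list, both chosen after seeing the data. The share of H3K4me2 peaks with FLAG, 42.0%, was 40.9%, 40.5%, 44.5% and 44.7% in the first 4 of these, then 40.7% and 56.7% in the last 2. The promoter excess of FLAG peaks, 40.1 points, was 41.5 with 50% covered, 45.4 in the top 50% of both lists, 28.3 in the top 50% of the FLAG list, 49.8 with the shortened list and 44.0 with promoters of 1 kb; in width classes 2 to 5 it was 38.2, 35.5, 31.0 and 27.5. The excess of H3K4me2 peaks, 13.0 points, was 14.9 within 500 bp, 7.22 in the top 50% of both lists, 5.72 with the shortened list and 19.2 with promoters of 1 kb. Within width classes 1 to 4 it turned to -4.61, -6.66, -2.71 and -1.57, and was 2.81 in the widest. The classes reduce the greater width of promoter peaks but do not remove it. In the widest class the median width was 1436 bp at promoters and 1294.5 bp in distal intergenic sequence. Promoters held the highest share of the 4 main classes in both lists under every overlap, list and chromosome alternative run for that list (the top 50% of the FLAG list was run for FLAG peaks only). The H3K4me2 share within 1 kb minus that at 10 to 50 kb, -6.25 points, turned to 2.34 within 500 bp; that rule counts FLAG peaks beside the mark. Genes with FLAG only numbered 431, and 229 with promoters of 1 kb. Limits: with 1 list per group, leaving out a replicate was not possible. No paired analysis was possible because each group has a single peak list with no replicate columns. Unknown depth limits what a missing peak means.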
